A study of Mus musculus with 12 samples.

Results

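A set of 8 interferon regulatory factor genes, Irf1, Irf2, Irf3, Irf4, Irf5, Irf7, Irf8 and Irf9, were followed across breast tumours of 12 mice. They were chosen by gene symbol, though earlier results of these data were known. They are 8 of the 55487 genes in the count table, all 8 of them among the 18019 genes abundant enough to be tested. All mice were C57BL/6J and carried MMTV-PyMT, a transgene that puts the polyoma middle T oncogene under a mouse mammary tumour virus promoter, active in mammary epithelium. In 6 mice Bad was wild-type (Bad_WT), with end points from 21.3 to 27.1 weeks of age, and 6 mice carried Bad 3SA (Bad3SA), with end points from 22.9 to 31.1 weeks. BAD is a pro-death member of the BCL2 family that is held inactive by phosphorylation, and 3SA is a form whose regulatory serines are replaced by alanine. Each library came from the tumour of a separate mouse.

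Interferon regulatory factors are transcription factors that share an N-terminal DNA-binding domain and bind the interferon-stimulated response element. IRF3 and IRF7 are phosphorylated downstream of nucleic acid sensors and switch on the interferon genes. IRF9 is the DNA-binding subunit of ISGF3, the complex that carries the signal of type I and type III interferons to their target genes, and IRF1 acts mainly in the response to interferon-gamma, with IRF2 as its counterpart. IRF5, IRF8 and IRF4 are best known from macrophages, dendritic cells and lymphocytes. Because IRF3 and IRF7 are controlled by phosphorylation, their transcript level does not report their activity.

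Whole libraries held between 58096172 and 83296370 counts. Mammary epithelial markers were abundant in every tumour, with a summed level of 8 genes between 4506 and 6515 CPM (counts scaled by library size and TMM factor). Bad_WT 6 stood apart, with the lowest summed level among all 12 tumours of macrophage markers (471 CPM) and of pan-leukocyte markers (77.5 CPM). Bad3SA 4, 5 and 6 also stood apart, at -66.5 to -52.8 on the second principal component of all tested genes (19.9% of the variance), where the other 9 tumours lay between 1.55 and 43.2. In bulk RNA, fewer cells of a type and less RNA per cell cannot be told apart.

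The genes lie on 6 chromosomes of GRCm38. Irf3 (chromosome 7, 44997648 to 45002848) and Irf7 (chromosome 7, 141262706 to 141266481) share one, as do Irf2 (chromosome 8, 46739732 to 46847458) and Irf8 (chromosome 8, 120736358 to 120756694). Irf1 is on chromosome 11 at 53770014 to 53778374, Irf4 on chromosome 13 at 30749226 to 30766976, Irf5 on chromosome 6 at 29526625 to 29541871 and Irf9 on chromosome 14 at 55603571 to 55610030. Their longest coding transcripts have 8 to 10 exons. On the opposite strand, the span of Bcl2l12 covers 1061 exonic bases of Irf3 and that of Tnpo3 covers 416 exonic bases of Irf5. Those of Gm17334 and Phrf1 cover 135 exonic bases of Irf1 and 45 of Irf7. Reads in those stretches could belong to either gene, since no source used here says whether strand was used in counting. On the same strand as Irf9, the span of Rnf31 (41.7 CPM in Bad_WT and 44.1 CPM in Bad3SA) covers 123 of its exonic bases. Spans hold introns too, and the exons of the covering genes were not compared. The exons of Irf8 lie within Gm20388 on the same strand, and Gm20388 had no counts. No transcript of another gene was at least 95% identical to a member over more than 128 bases.

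The promoters are shown because several of these genes are themselves induced by interferon. RefSeq start sites of the 8 genes gave 11 windows of 250 bases upstream of a start (GRCm38.p6), which were searched on both strands for the interferon-stimulated response element core, GAAANNGAAA, and for the gamma-activated site of interferon-gamma responses, TTCNNNGAA. The first was found in 1 window, that of Irf2, and the second in 3 windows, those of Irf1, Irf2 and Irf8. Among all 32851 promoter windows of this length, 2.98% held the first motif and 7.02% the second. The 100 bases around the matches follow, with the matches in capitals. They lie at chr11:53769878-53769977 for Irf1, chr8:46739495-46739594 for Irf2 and chr8:120736150-120736249 for Irf8, all on the plus strand.
Irf1: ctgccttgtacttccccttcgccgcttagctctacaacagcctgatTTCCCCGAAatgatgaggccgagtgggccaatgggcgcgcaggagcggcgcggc
Irf2: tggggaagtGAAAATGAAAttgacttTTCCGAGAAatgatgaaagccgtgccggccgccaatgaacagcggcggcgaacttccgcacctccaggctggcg
Irf8: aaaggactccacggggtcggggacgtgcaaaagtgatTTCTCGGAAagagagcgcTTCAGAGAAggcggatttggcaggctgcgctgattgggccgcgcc
The match of Irf1 begins 90 bases before the start site, those of Irf2 begin 241 and 224 bases before it, and those of Irf8 begin 171 and 153 bases before it. The window of Irf7, the most abundant member, had neither set of letters. An element with other letters, or outside these 250 bases, would not have been found. The Irf7 window lies at chr7:141266425-141266674 on the minus strand and is shown whole.
Irf7: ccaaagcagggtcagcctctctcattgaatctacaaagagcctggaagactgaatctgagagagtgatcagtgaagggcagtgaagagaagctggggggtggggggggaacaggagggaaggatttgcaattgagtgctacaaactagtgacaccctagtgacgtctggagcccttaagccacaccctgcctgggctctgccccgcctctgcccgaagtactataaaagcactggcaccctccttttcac

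Irf7 was the most abundant member, and Irf4 was close to silent. On a scale that divides CPM by the exon length of the gene in kilobases (RPKM), Irf7 stood at 65.1 ± 35.0 in Bad_WT and 122 ± 30.5 in Bad3SA (SD, n = 6 each). Irf9 followed at 18.5 ± 5.49 and 26.1 ± 5.16 RPKM, Irf3 at 15.2 ± 0.847 and 20.8 ± 4.72, and Irf1 at 16.0 ± 3.06 and 18.9 ± 3.22. Below them came Irf2 at 5.85 ± 0.789 and 5.63 ± 0.779 RPKM, Irf5 at 3.66 ± 1.63 and 4.12 ± 1.35, Irf8 at 2.46 ± 0.784 and 2.77 ± 0.741, and Irf4 at 0.158 ± 0.196 and 0.128 ± 0.111. On this scale Irf7 exceeded Irf9 in all 12 tumours, narrowly in Bad_WT 6 (9.92 against 9.66 RPKM). Irf9, Irf3 and Irf1 were not clearly ordered: Irf9 exceeded Irf3 in 8 tumours, and Irf3 exceeded Irf1 in 8. Irf2 was above Irf5, Irf5 above Irf8 and Irf8 above Irf4 in all 12 tumours. With the length of the longest coding transcript in place of all exons, Irf7, Irf9 and Irf4 held places 1, 2 and 8, while Irf1 passed Irf3 and Irf8 passed Irf5. With the longest transcript of any kind Irf1 was in place 2 and Irf9 in place 3. These places are by the mean over the 12 tumours. In Bad_WT 6 (37.5 CPM of Irf7 and 52.0 CPM of Irf9) either transcript length put Irf9 above Irf7.

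**Figure D1:**
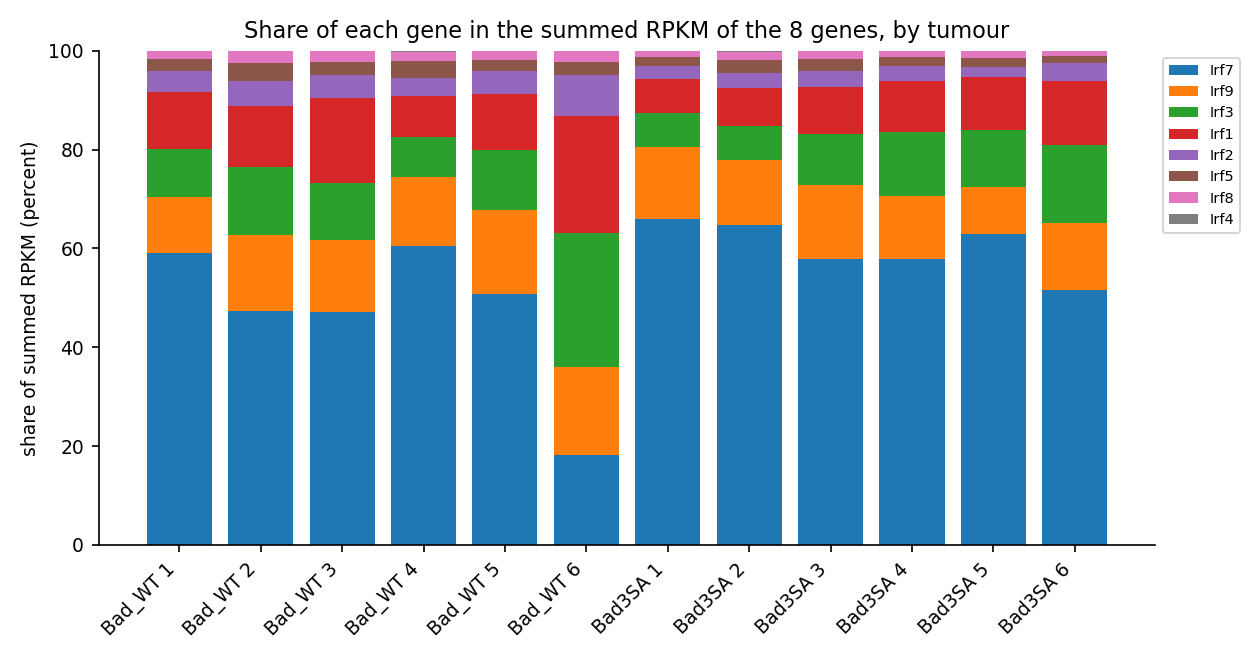
Share of each gene in the summed RPKM of the 8 genes (percent, stacked bars), 1 bar for each tumour, in the order of the genotypes. Irf7 held between 47.1% and 65.9% in 11 tumours and 18.2% in Bad_WT 6, where Irf3 was the largest part.

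Of the 8 genes, none passed the test between genotypes (edgeR quasi-likelihood, Benjamini-Hochberg adjusted p under 0.05 over all genes), where 1.38% of all genes passed and 0.622% did so as higher in Bad3SA. An unadjusted p under 0.05 was reached by 3 of them, Irf3, Irf7 and Irf9, each with a higher mean in Bad3SA, beside 7.18% of all genes that met this in the same direction. DESeq2 also passed none of the 8, against 4.35% of all genes, limma voom none, against 3.21%, and the authors' deposited table none, against 4.02%. DESeq2 and limma voom each gave 3 members an unadjusted p under 0.05, but the share of all genes that did so was not counted for them. The ranges of the 2 genotypes overlapped for every member, while they were apart for 2.23% of all genes. Of the 8 log2 fold changes 6 were positive with a median of 0.20, and over all genes 50.4% were positive with a median of 0.0033.

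**Figure D2:**
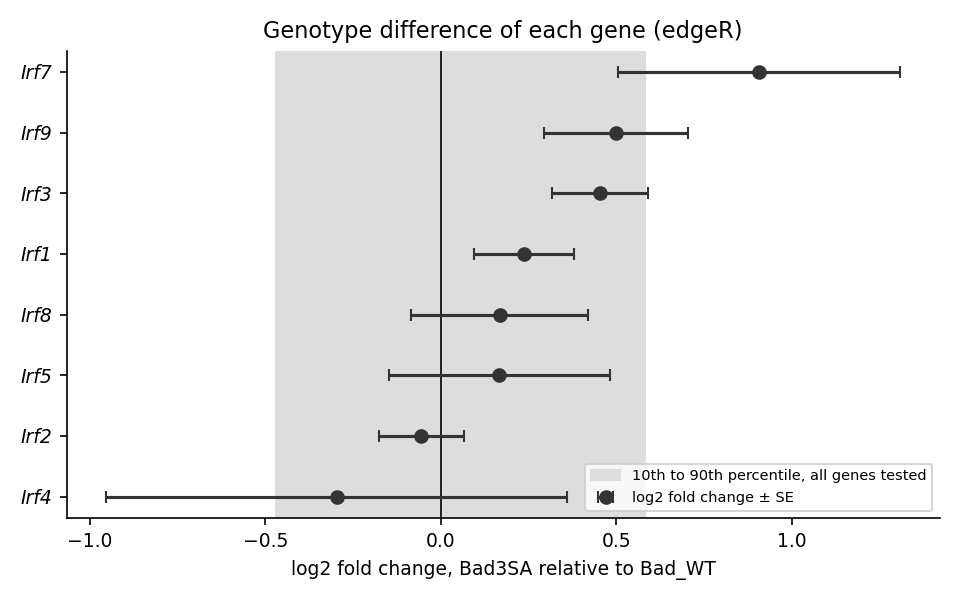
Log2 fold change of each gene in Bad3SA relative to Bad_WT (points) with its standard error (bars), from the edgeR fit. The grey band runs from the 10th to the 90th percentile of all 18019 genes tested, -0.47 to 0.58, and Irf7, at 0.91, is the 1 gene of the 8 outside it.

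Irf7, the amplifier of type I interferon production and itself an interferon-stimulated gene, had the largest difference. It ran from 37.5 through a median of 227 to 431 CPM in Bad_WT, and from 272 through 487 to 568 CPM in Bad3SA. The 3 Bad3SA tumours with numbers 1, 2 and 5 lay above the highest Bad_WT tumour, and 4 Bad_WT tumours lay below the lowest Bad3SA tumour. The means were 246 ± 132 and 461 ± 115 CPM (SD, n = 6 each). On the log2 scale the fitted difference was 0.91 (SE 0.40, edgeR adjusted p = 0.287). Bad_WT 6 was far below the rest, and without it the log2 fold change was 0.68 (edgeR adjusted p = 0.199). Adjusting for age gave 0.78 (edgeR adjusted p = 0.796).

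Irf9, the DNA-binding part of ISGF3, was second in size. Its lowest, median and highest levels were 52.0, 99.0 and 143 CPM in Bad_WT and 103, 142 and 179 CPM in Bad3SA. The groups overlapped through Bad_WT 4, which was higher than 3 of the Bad3SA tumours, and Bad_WT 5, which was higher than 1. The log2 fold change was 0.50 (SE 0.20, edgeR adjusted p = 0.259), from 99.5 ± 29.6 to 141 ± 27.8 CPM (SD, n = 6 each). It was 0.37 without Bad_WT 6 (edgeR adjusted p = 0.311) and 0.72 without Bad3SA 4, 5 and 6 (edgeR adjusted p = 0.260), and its smallest adjusted p under any alternative was 0.0687, with limma voom.

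Irf3, the constitutive factor downstream of the RNA and DNA sensors, was nearly flat in Bad_WT and spread out in Bad3SA. The 6 Bad_WT tumours lay between 49.6 and 57.8 CPM, with a median of 51.1. The Bad3SA tumours ran from 53.4 to 91.8 CPM with a median of 70.7, and 4 of them were above every Bad_WT tumour. The highest were Bad3SA 5 (91.8 CPM), 4 (87.6 CPM) and 6 (76.0 CPM), the tumours set apart on the second principal component. With means of 52.3 ± 2.92 and 71.6 ± 16.3 CPM, Irf3 had the smallest p of the 8 and did not pass (log2 difference 0.45 ± 0.14, SE; edgeR adjusted p = 0.142; DESeq2 adjusted p = 0.0669). Without Bad3SA 4, 5 and 6 the log2 fold change was 0.16 (edgeR adjusted p = 0.502), and adjusting for age gave 0.29 (edgeR adjusted p = 0.760). Bcl2l12, whose span covers exonic bases of Irf3, averaged 6.89 CPM (Bad_WT) and 7.78 CPM (Bad3SA), with a log2 fold change of 0.18 (edgeR adjusted p = 0.657).

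**Figure D3:**
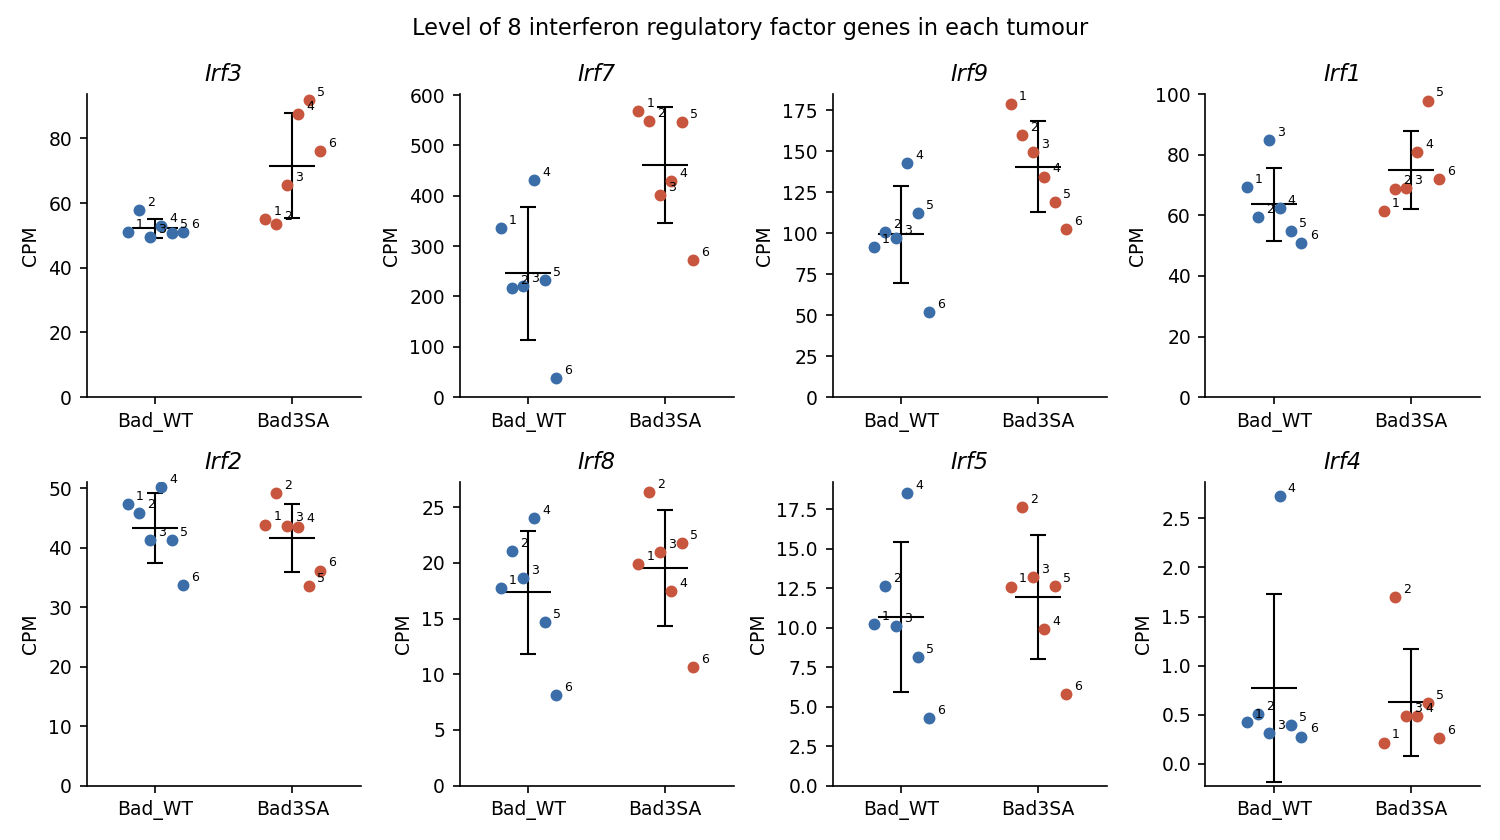
Level of each gene in CPM (linear axis, 1 panel for each gene) in the 6 Bad_WT and 6 Bad3SA tumours. Points are tumours with their number, and bars are the mean and SD. Irf3 lay between 49.6 and 57.8 CPM in Bad_WT, and Bad_WT 6 was the lowest Bad_WT tumour for Irf1, Irf2, Irf4, Irf5, Irf7, Irf8 and Irf9.

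Irf1 and Irf2, the pair that bind one site with opposing effects, differed little. Irf1 ran from 50.9 through 60.9 to 84.8 CPM in Bad_WT and from 61.5 through 70.5 to 97.8 CPM in Bad3SA. All 6 Bad3SA tumours lay above the Bad_WT median of Irf1, and 1 lay above the Bad_WT maximum. The log2 fold change of Irf1 was 0.24 (SE 0.14, edgeR adjusted p = 0.416). It was 0.14 without Bad3SA 5, 0.073 without Bad3SA 4, 5 and 6 and 0.067 when adjusted for age. Irf2 ran from 33.7 through 43.6 to 50.2 CPM in Bad_WT and from 33.5 through 43.6 to 49.2 CPM in Bad3SA, nearly the same range. Its log2 fold change was -0.055 (SE 0.12, edgeR adjusted p = 0.839), and lay between -0.12 (without Bad_WT 6) and -0.0045 (without Bad3SA 5) when 1 tumour was left out. The ratio of its highest to its lowest level over the 12 tumours was the smallest of the 8.

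Among the factors known from immune cells, Irf5 and Irf8 overlapped widely between the genotypes. Irf8, which directs the monocyte and dendritic cell lineages, ran from 8.10 through 18.2 to 24.0 CPM in Bad_WT and from 10.7 through 20.4 to 26.4 CPM in Bad3SA, with a fitted log2 difference of 0.17 ± 0.25 (SE; edgeR adjusted p = 0.753). Irf5, an activator of inflammatory cytokine genes in macrophages, ran from 4.30 through 10.2 to 18.5 CPM and from 5.80 through 12.6 to 17.6 CPM, also 0.17 (SE 0.32, edgeR adjusted p = 0.807). For both, number 6 was the lowest tumour of each genotype. Their log2 fold changes moved both ways with single tumours. That of Irf8 was 0.021 without Bad_WT 6, 0.063 without Bad3SA 2, 0.28 without Bad_WT 4 and 0.29 without Bad3SA 6. That of Irf5 was 0.0042, 0.024, 0.40 and 0.31 in the same order, and 0.10 without Bad_WT 5. Without Bad3SA 4, 5 and 6 they were 0.38 for Irf8 and 0.45 for Irf5, and adjusting for age gave -0.034 and -0.048.

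Irf4, needed for plasma cells and for a class of dendritic cells, had 333 counts in all Bad_WT tumours together and 271 in Bad3SA. Single tumours set its level: Bad_WT 4 held 2.72 CPM and the other Bad_WT tumours at most 0.508 CPM, while Bad3SA 2 held 1.70 CPM and the other Bad3SA tumours at most 0.617 CPM. Its fitted log2 difference of -0.30 ± 0.66 (SE; edgeR adjusted p = 0.840) turned to 0.72 without Bad_WT 4 and went to -0.91 without Bad3SA 2, and lay between -0.49 and -0.14 with any other tumour left out. Adjusting for age gave -1.31 (edgeR adjusted p = 0.801).

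Some members varied together from tumour to tumour. Over the 12 tumours, 3 of the 28 pairs passed on both Pearson's r and Spearman's rho after adjustment over the 28 (permutation test, 100000 resamples, two-sided). Irf5 and Irf8 varied most closely together, with r = 0.98 and rho = 0.97 (permutation p = 1e-05 each, the smallest these resamples can give, adjusted p = 0.00028). Their r was 0.96 without the 2 tumours farthest from the Irf5 median, 0.98 within Bad_WT and 0.99 within Bad3SA. Irf7 and Irf9 followed, with r = 0.91 and rho = 0.85 (permutation p = 0.00022 and 0.00084, adjusted p = 0.00308 and 0.0118). That r was 0.76 without the 2 farthest tumours, 0.93 within Bad_WT and 0.71 within Bad3SA. The other pair was Irf4 and Irf5, with r = 0.71 and rho = 0.75 (permutation p = 0.0137 and 0.00694, adjusted p = 0.0460 and 0.0486). Leaving out the 2 farthest tumours, Bad_WT 4 and Bad3SA 2, brought that r to 0.51, and it was 0.78 within Bad_WT and 0.66 within Bad3SA. Irf3 formed no such pair with any other member. In Bad3SA its r was 0.87 with Irf1 and -0.76 with Irf9, over 6 tumours each, while in Bad_WT these were -0.32 and 0.22.

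Irf7 and Irf9 followed the target genes of ISGF3. With the mean log2 CPM of 23 such targets, Irf7 had r = 0.98 and rho = 0.94 over the 12 tumours (permutation p = 1e-05 and 5e-05, adjusted over 152 relations of a member with a list to 0.000304 and 0.00127). Without the 2 tumours farthest from the Irf7 median, r was 0.93, and it was 0.997 within Bad_WT and 0.91 within Bad3SA. For Irf9 the values were r = 0.93 and rho = 0.83 (permutation p = 0.00012 and 0.00146, adjusted p = 0.00182 and 0.0171), with 0.78 without the 2 farthest tumours, 0.95 within Bad_WT and 0.72 within Bad3SA. Without Bad_WT 6 alone, r was 0.95 for Irf7 and 0.82 for Irf9. For Irf3 the relation with these targets did not pass on either measure (r = 0.47, permutation p = 0.126, adjusted p = 0.203; rho = 0.65, permutation p = 0.0260, adjusted p = 0.0917). Its r with them was 0.30 without the 2 farthest tumours, 0.17 within Bad_WT and -0.15 within Bad3SA. Irf7 and Irf9 also passed on both measures with the mean of 21 IRF1 target genes. Irf7 had r = 0.96 and rho = 0.83 (permutation p = 3e-05 and 0.00131, adjusted p = 0.000651 and 0.0166). Irf9 had r = 0.86 and rho = 0.71 (permutation p = 0.00178 and 0.0117, adjusted p = 0.0113 and 0.0492). Without the 2 farthest tumours these r were 0.86 and 0.64, and within Bad3SA 0.74 and 0.21.

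**Figure D4:**
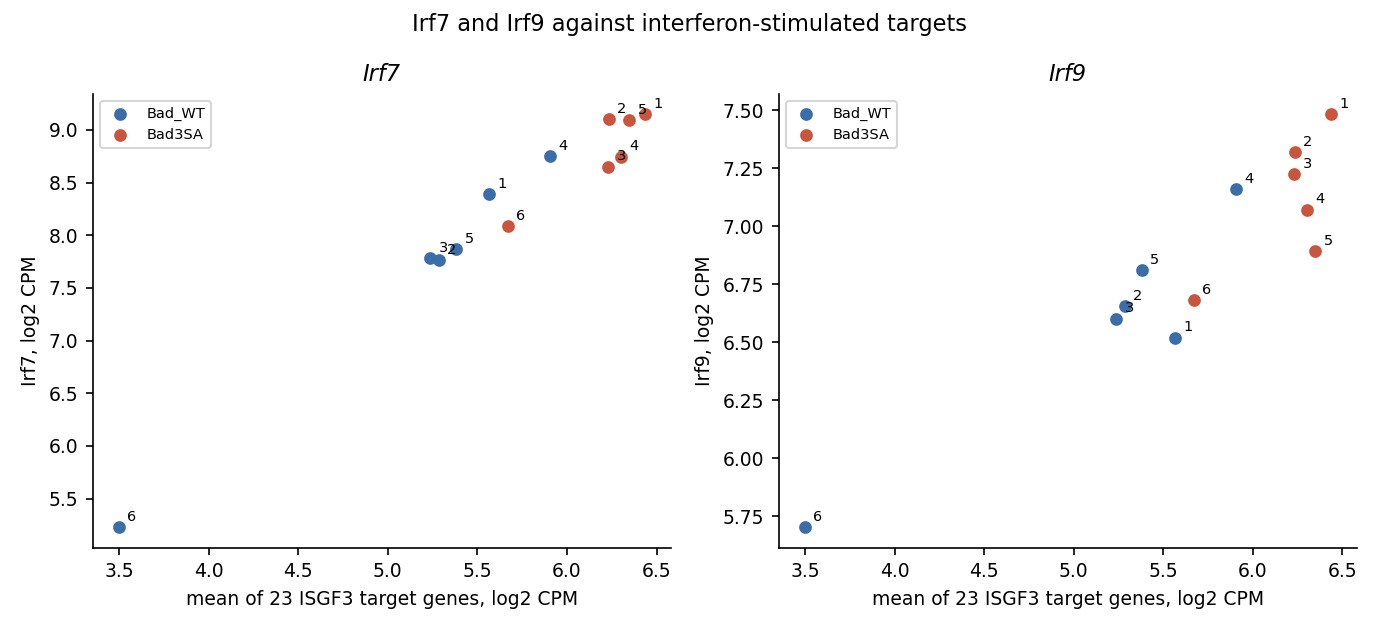
Log2 CPM of Irf7 (left) and Irf9 (right) against the mean log2 CPM of 23 ISGF3 target genes, with 1 numbered point for each tumour coloured by genotype. Pearson's r over the 12 tumours was 0.98 for Irf7 and 0.93 for Irf9, and Bad_WT 6 lies far below the other tumours on both axes.

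Irf5 and Irf8 varied with the markers of leukocytes, macrophages among them. With the mean of 5 pan-leukocyte markers, Irf5 had r = 0.97 and rho = 0.93 (permutation p = 1e-05 and 4e-05, adjusted p = 0.000304 and 0.00122) and Irf8 r = 0.95 and rho = 0.95 (permutation p = 1e-05 each, adjusted p = 0.000304 and 0.000507). These r were 0.93 for both without the 2 tumours farthest from the median of the gene, 0.99 and 0.95 within Bad_WT and 0.93 and 0.95 within Bad3SA. With the mean of 11 macrophage markers, Irf5 had r = 0.96 and rho = 0.96 (permutation p = 1e-05 each, adjusted p = 0.000304 and 0.000507) and Irf8 r = 0.92 and rho = 0.97 (permutation p = 1e-05 each, adjusted p = 0.000304 and 0.000507). Without the 2 tumours farthest from the median of the gene these r were 0.95 and 0.93. Within Bad_WT they were 0.96 and 0.89 and within Bad3SA 0.95 and 0.95. Both genes also passed on both measures with the lists of cDC1, cDC2, plasma cell and NK cell markers, upstream sensors and partner factors, with r between 0.76 and 0.90. Without the 2 farthest tumours these r ran from 0.39 (Irf5 with cDC1 markers) to 0.87 (Irf5 with cDC2 markers). They lay between 0.85 and 0.99 within Bad_WT and between 0.53 and 0.85 within Bad3SA. The lists were not compared with each other. Of the 11 macrophage markers 9 had a positive log2 fold change and none passed, their summed level ran from 471 to 1207 CPM in Bad_WT and from 494 to 1248 CPM in Bad3SA, and none was at 0. The 5 pan-leukocyte markers ran from 77.5 to 256 CPM and from 101 to 254 CPM, with none passing and none at 0. The part of these cells in the levels of Irf5, Irf8 and Irf7 was not tested. Irf7 had r = 0.72 and rho = 0.68 with macrophage markers (permutation p = 0.00364 and 0.0182, adjusted p = 0.0191 and 0.0676), 0.69 without the 2 farthest tumours, 0.79 within Bad_WT and 0.78 within Bad3SA. With mammary epithelial markers Irf7 passed on both measures (r = 0.79, rho = 0.80, permutation p = 0.00111 and 0.00290, adjusted p = 0.00869 and 0.0224), with r = 0.58 without the 2 farthest tumours, 0.81 within Bad_WT and 0.67 within Bad3SA. Irf9 did so too (r = 0.86, rho = 0.83, permutation p = 0.00043 and 0.00109, adjusted p = 0.00467 and 0.0151), with r = 0.70 without the 2 farthest tumours, 0.88 within Bad_WT and 0.91 within Bad3SA. Each gene counts alike in the mean of the epithelial list. In Bad_WT its Krt5 ran from 4.57 to 293 CPM and its Krt8 from 1065 to 1564 CPM. Whether that mean reports the amount of epithelium was not tested.

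**Figure D5:**
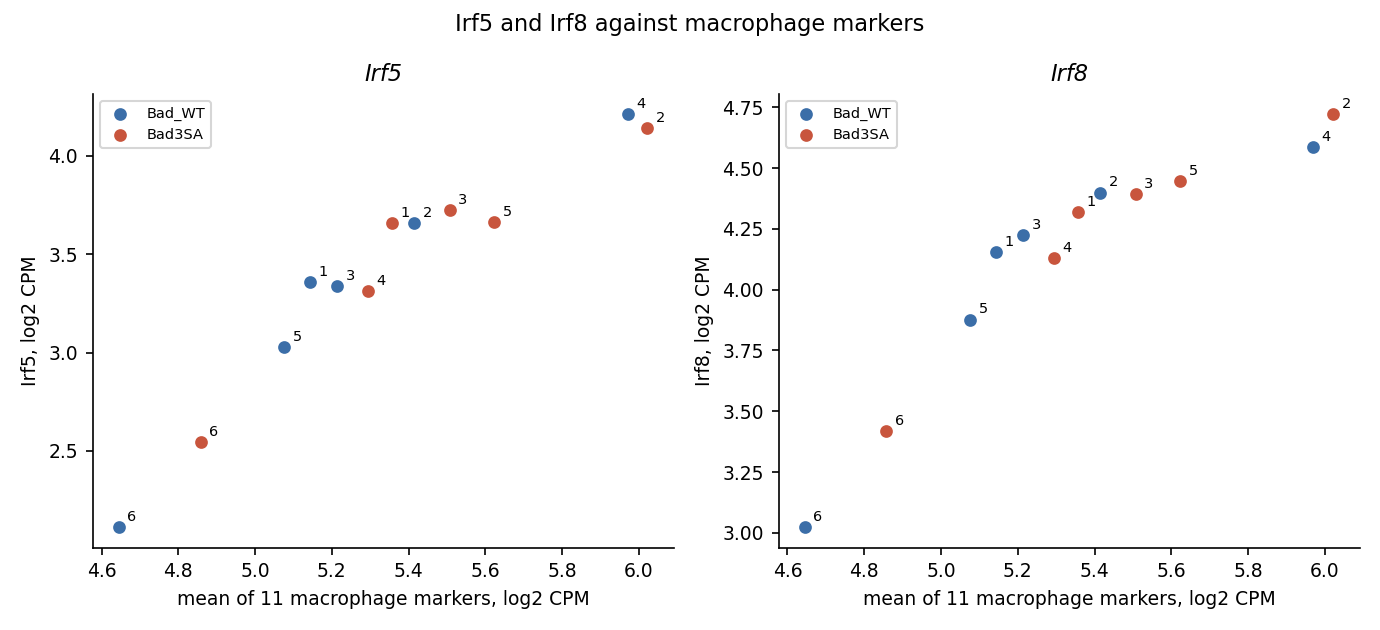
Log2 CPM of Irf5 (left) and Irf8 (right) against the mean log2 CPM of 11 macrophage markers, with 1 numbered point for each tumour coloured by genotype. The genotypes lie along one line, and number 6 of each genotype is lowest on both axes.

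Irf4 also varied with macrophage markers (r = 0.84, rho = 0.79, permutation p = 0.00072 and 0.00368, adjusted p = 0.00642 and 0.0224), with r = 0.62 without the 2 farthest tumours, 0.90 within Bad_WT and 0.85 within Bad3SA. It passed on both measures with markers of the dendritic cell classes as well. With cDC2 markers r was 0.77 and rho 0.81 (permutation p = 0.00350 and 0.00203, adjusted p = 0.0191 and 0.0193), with r = 0.63 without the 2 farthest tumours, 0.81 within Bad_WT and 0.91 within Bad3SA. With cDC1 markers r was 0.74 and rho 0.91 (permutation p = 0.0103 and 8e-05, adjusted p = 0.0340 and 0.00174), with r = 0.88 without the 2 farthest tumours, 0.63 within Bad_WT and 0.88 within Bad3SA. Irf4 also passed with pan-leukocyte and fibroblast markers (r = 0.77 and 0.76). With plasma cell markers the relation did not pass (r = 0.52, rho = 0.52, permutation p = 0.0932 and 0.0880, adjusted p = 0.154 and 0.203, r = 0.37 without the 2 farthest tumours, 0.63 within Bad_WT and 0.39 within Bad3SA). That list, used for Irf2, Irf5 and Irf8 too, holds Xbp1 (mean 956 CPM in Bad_WT and 1568 CPM in Bad3SA) beside Mzb1 (0.181 and 0.233 CPM). The cDC1 list holds Cadm1 (82.0 CPM in Bad_WT and 74.1 CPM in Bad3SA) beside Xcr1 (0.423 and 0.420 CPM). Whether the means of the plasma cell, cDC1 and cDC2 lists report those cells alone was not tested. Irf2 varied with the list of sensors and kinases upstream of IRF3 and IRF7 (r = 0.93, rho = 0.96, permutation p = 2e-05 each, adjusted p = 0.000507 and 0.00076). Its r with that list was 0.94 without the 2 farthest tumours, 0.98 within Bad_WT and 0.91 within Bad3SA. Irf2 also passed on both measures with plasma cell markers (r = 0.77, rho = 0.80, permutation p = 0.00222 and 0.00269, adjusted p = 0.0135 and 0.0224). That r was 0.73 without the 2 farthest tumours, 0.93 within Bad_WT and 0.76 within Bad3SA. Irf1 and its 21 target genes did not pass on rho (r = 0.68, permutation p = 0.0144, adjusted p = 0.0392; rho = 0.57, permutation p = 0.0603, adjusted p = 0.155), and r was 0.33 without Bad_WT 6 and Bad3SA 5, with 0.58 within Bad_WT and 0.64 within Bad3SA.

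The remainder of the pathway was read from ligand to target. None of 21 interferon ligand genes was abundant enough to be tested, and 8 had no count in any tumour. Ifnb1, the gene for interferon-beta, had 19 counts over the 6 Bad_WT tumours and 24 over Bad3SA, and Ifng, the gene for interferon-gamma, had 18 and 14. A count of 3 in a tumour is worth between 0.0346 and 0.0544 CPM here, so no difference in ligand transcripts was detectable. Of 9 genes for interferon receptors and JAK kinases none passed, with a median log2 fold change of 0.042 (0.022 to 0.078 with 1 tumour left out). Tyk2, Ifnar1 and Jak1 had the smallest p among them, at 0.11, -0.10 and 0.13 with edgeR adjusted p of 0.629, 0.635 and 0.696.

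Among 21 sensors, adaptors and kinases that act upstream of IRF3 and IRF7 none passed in edgeR, and 11 were positive with a median of 0.017, which ran from -0.12 (Bad3SA 2) to 0.11 (Bad3SA 6) as each tumour was left out. Sting1, the adaptor of cytosolic DNA sensing, averaged 63.9 ± 14.5 CPM (Bad_WT) against 41.6 ± 7.84 CPM (Bad3SA; SD, n = 6 each; log2 fold change -0.62, SE 0.17, edgeR adjusted p = 0.100). Sting1 passed with DESeq2 (adjusted p = 0.0259) and limma voom (adjusted p = 0.0341). Traf6, a ubiquitin ligase of Toll-like receptor signalling, stood at -0.44 (edgeR adjusted p = 0.164) and Dhx58, which encodes the RNA sensor LGP2, at 0.75 (edgeR adjusted p = 0.190).

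Partners and inhibitors of the family gave no call in edgeR. Of 11 partner factors 6 were positive with a median of 0.26, which ran from 0.10 (Bad_WT 6) to 0.32 (Bad3SA 6) as each tumour was left out in turn and was 0.044 when adjusted for age. Stat2, the partner of IRF9, averaged 53.2 ± 15.9 CPM (Bad_WT) against 92.8 ± 19.3 CPM (Bad3SA), and 5 of the 6 Bad3SA tumours were above every Bad_WT tumour (log2 fold change 0.80, SE 0.22, edgeR adjusted p = 0.110). The coactivator gene Crebbp stood at 0.35 (edgeR adjusted p = 0.309). Stat2 passed with limma voom (adjusted p = 0.0104) and with DESeq2 (adjusted p = 0.0420). Of 11 inhibitors 6 were positive with a median of 0.015, which turned with single tumours, from -0.050 without Bad_WT 4 to 0.14 without Bad_WT 6. Usp18, which restrains signalling at the type I receptor, stood at 1.10 (edgeR adjusted p = 0.238), Rbck1 at 0.14 (edgeR adjusted p = 0.408) and Irf2bpl at -0.22 (edgeR adjusted p = 0.427).

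Target genes gave the calls. All 23 ISGF3 targets were fitted higher in Bad3SA, by a median of 0.89 on the log2 scale, against 0.0033 over all genes, and 2 of them passed, where 0.622% of all genes passed as higher. An unadjusted p under 0.05 was reached by 18 of the 23, all higher in Bad3SA, against 7.18% of all genes. Without Bad_WT 6 the median was 0.74. Ifi44, an interferon-induced gene, ran from 13.3 to 81.6 CPM in Bad_WT and from 117 to 203 CPM in Bad3SA (log2 fold change 1.84, edgeR adjusted p = 0.0112), and Oas2, which makes the second messenger of RNase L, from 2.30 to 30.2 CPM and from 49.8 to 142 CPM (2.31, edgeR adjusted p = 0.0315). The genotypes did not overlap for either. Isg15, a ubiquitin-like modifier, stood at 1.29 (edgeR adjusted p = 0.111). Of 21 genes that IRF1 is known to act on, 18 were positive with a median of 0.53 (0.40 without Bad_WT 6), 8 had an unadjusted p under 0.05, all higher, and 1 passed, Nlrc5, the transactivator of MHC class I genes, which ran from 5.26 to 21.4 CPM in Bad_WT and from 24.6 to 57.4 CPM in Bad3SA (1.76, edgeR adjusted p = 0.0143). Tap1, a peptide transporter gene, and Psmb8, an immunoproteasome gene, stood at 0.84 and 1.15 (edgeR adjusted p = 0.0691 and 0.0929). Isg15, Tap1 and Psmb8 passed with DESeq2 (adjusted p = 0.0230, 0.0172 and 0.0157), and Isg15 and Tap1 also with limma voom (adjusted p = 0.0311 and 0.0105). Adjusted for age, none of Ifi44, Oas2 and Nlrc5 passed (edgeR adjusted p = 0.0718, 0.111 and 0.0722), while their log2 fold changes were 1.82, 2.40 and 1.81. With 1 tumour left out, 1 to 3 genes of each list passed. Oas2 lost its call in 8 of the 12 fits that left out a tumour, with edgeR adjusted p of at most 0.0901. Without Bad3SA 4, 5 and 6 none of the 3 passed (edgeR adjusted p = 0.0585, 0.114 and 0.0572).

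Markers of the other cell types were read beside the members, and no gene passed in any of these lists. The median log2 fold change was -0.056 over 7 markers of type 1 conventional dendritic cells, 0.15 over 5 of type 2, -0.15 over 4 tested of plasmacytoid dendritic cells, 0.16 over 8 of plasma cells, 0.32 over 4 of B cells, 0.59 over 9 of T cells and 0.37 over 8 of NK cells. It was 0.35 over 5 neutrophil markers, 0.015 over 8 epithelial, 0.29 over 7 fibroblast and 0.018 over 5 endothelial markers. No marker was at 0 in all tumours. B cell markers were the scarcest, at 0.800 to 2.26 CPM in Bad_WT and 1.53 to 2.98 CPM in Bad3SA for the list summed. T cell markers summed to between 15.1 and 19.6 CPM in Bad_WT and between 17.3 and 30.3 CPM in Bad3SA.

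The genes most like each member were sought among 12265 genes whose mean log2 CPM was 1 or more, by Pearson's r over the 12 tumours after each genotype's mean was subtracted. For Irf7 they were Ifit1, Rtp4 and Oas1a (r = 0.99, 0.99 and 0.98), all interferon-stimulated. For Irf9 they were Gbp3, Muc15 and Oasl2 (0.96 each), of which Gbp3 and Oasl2 are interferon-stimulated. Irf5 and Irf8 shared Arhgap15 (0.99 and 0.98) and Sla (0.98 and 0.97), both signalling genes of blood cells, with Tlr13 for Irf5 (0.98) and Ctss, a lysosomal protease of antigen-presenting cells, for Irf8 (0.97). Irf2 was most like Tgfbr2, a TGF-beta receptor gene, Mfsd6 and Lrrc75b (0.98, 0.96 and 0.96). Irf3 was most like Rab24, Upf3b and Slx1b (0.95, 0.94 and 0.94) and Irf1 most like Nsun4, Rab19 and Dand5 (0.97, 0.93 and 0.93). Irf4 was under the minimum level and was not searched. These are the highest of many values over 12 tumours and are given as a description.

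Age moved with genotype although the study describes its mice as matched for age. End points averaged 24.0 ± 1.93 weeks for Bad_WT and 27.5 ± 2.85 weeks for Bad3SA (SD, n = 6 each), 3.40 weeks apart (two-sided exact permutation p = 0.0433). In a model with genotype and age, no member had an unadjusted p under 0.05 for the slope with age, which 8.44% of all genes had, and none had one for genotype.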

How the data were processed

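Polyadenylated RNA of 12 tumours was sequenced as paired 100 bp reads, per the labels' protocols. The authors deposited raw counts per Ensembl gene for each tumour. Build GRCm38, STAR 2.7.9a, fastp 0.23.1 and DESeq2 are listed in the submitters' processing notes. How reads were assigned to genes, with which annotation and whether by strand: not given in the sources used here. The authors' deposited comparison gives a log2 fold change and an adjusted p-value per gene, per the file headers. Its sign was set against the counts (Spearman rho -0.997 across 18019 genes).

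The 8 genes, the lists and the tests were chosen with earlier results of these data known. A further gene of the family and a gene that the naming rule picks are not reported here. All 55487 genes entered filterByExpr of edgeR 4.0.16, and 18019 were kept, scaled with TMM factors and tested for genotype with the robust quasi-likelihood test and Benjamini-Hochberg adjustment at 0.05. Fold changes are Bad3SA over Bad_WT, with SE = |log2 fold change| / √F. Named genes were every member, the genes that passed in each pathway list, filled up to 3 with those of smallest p, and the 3 genes most like each member, gene models named Gm or Rik left out. GENCODE mouse release 21 (GRCm38) gave positions and exon lengths, and RefSeq (GRCm38.p6), in which all 8 genes matched, gave promoter sequences. Transcripts were compared with BLAST+ 2.17.0, and relations used log2 CPM with a prior count of 2. The fit was tested on simulated data.

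Alternatives were other size factors, the DESeq2 1.42.0 Wald test, limma 3.58.1 voom with quality weights, other filters, no robust dispersion, end-point age, leaving out each tumour, and a block for the title number. The relations with lists, the coding transcript length and the fit without Bad3SA 4, 5 and 6 were chosen after seeing the data. Analyses ran in R 4.3.3 and Python 3.11.15. Floors cover counting error only.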

Additional observations from a re-analysis of the deposited data

Results flagged for a closer look

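In 2 of the 16 sets of 6 tumours examined (8 genes in each genotype), one tumour lay farther from the next than Dixon's 95% limit for 6 samples allows, and chance alone does this in about 1 in 20. Both concern Irf4. Bad_WT 4 held 2.72 CPM of Irf4, with the next Bad_WT tumour at 0.508 CPM. Bad3SA 2 held 1.70 CPM of Irf4, with the next Bad3SA tumour at 0.617 CPM.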

How the results depend on the processing

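No member passed in any of its fits under the alternatives, 175 in all, and 6 of these turned the sign. Irf4 went to 0.0022 with limma voom, to 0.72 without Bad_WT 4 (from -0.91 to 0.72 with 1 tumour left out) and to 0.057 without Bad3SA 4, 5 and 6. That last fit took Irf2 to 0.086, and end-point age took Irf5 to -0.048 and Irf8 to -0.034. The cause was not tested. Irf4 had no value with a filter of at least 1 CPM in 6 tumours. Over all genes 249 passed in the main model, 1017 with DESeq2, 579 with limma voom, 163 with the filter of 1 CPM, 73 with end-point age, 151 without Bad3SA 4, 5 and 6, and 147 to 315 with 1 tumour left out. With the replicate block 105 passed and no member did. Tumours of the same title number did not deviate together (correlations from -0.271 to 0.283, with 1 of the 6 numbers closest to its own), so the numbers were not taken to pair them. The difference in median age was 4.00 weeks (exact permutation p = 0.0628), and with 1 mouse left out the difference in means ran from 2.67 to 4.32 weeks, above a p of 0.05 for 10 of the 12 mice. Depth limits the interferon ligands.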

Other observations

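The ratio of Irf7 to Irf9 in CPM differed among tumours. It was 0.720 in Bad_WT 6, lay between 2.08 and 3.67 in the other 5 Bad_WT tumours and between 2.65 and 4.59 in the 6 Bad3SA tumours. Bad_WT 1, at 3.67, was higher than 5 of the Bad3SA tumours. No test was run on this ratio.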
